A study of Rattus norvegicus with 10 samples.

Results

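The 9 class I antigen processing genes are B2m, Tap1, Tap2, Tapbp, Psmb8, Psmb9, Psmb10, Psme1 and Psme2. They were chosen by name, as the mRNA probes whose RefSeq accession belongs to these genes, and they are 9 of 12134 named genes with an mRNA tested. The RNA was spinal cord RNA of male Sprague Dawley rats of 240 to 260 g, measured on one-colour Agilent lncRNA and mRNA arrays, 1 array per rat. The morphine tolerance (MT) group, rats 1 to 5, received 10 μg morphine in 10 μl intrathecally 2 times a day for 7 days. The normal saline (NS) group, rats 6 to 10, received 10 μl saline on the same schedule, so that both groups carried the injections. By the methods of the study, a last morning injection of morphine or saline followed on the next day. The rats were anesthetized an hour after it and the lumbar enlargement was taken. The last dose and the repeated doses therefore cannot be told apart. The cord holds many cell types, so fewer cells of a type and less RNA per cell cannot be told apart.

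Class I molecules show peptides from inside the cell to CD8 T cells and natural killer cells. The proteasome cuts cytosolic proteins into peptides, the TAP transporter carries these into the endoplasmic reticulum, and tapasin holds an empty class I molecule next to the transporter until a fitting peptide is bound. Interferons raise this whole path in most tissues and exchange the catalytic subunits of the standard proteasome for those of the immunoproteasome. In healthy central nervous tissue class I genes are known for low expression in neurons and for induction by interferon in microglia, endothelium and other glia.

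All 9 genes had a probe that passed the filter, and each was well above background on 10 of 10 arrays. B2m had 2 probes, 1 of them printed in 10 spots, and each of the other genes had 1 probe in 1 spot. Arrays that share a scan time were taken as a slide. Slide 1 held MT1, MT3, MT4 and MT5, slide 2 held MT2, NS6, NS7 and NS10, and slide 3, scanned on another day, held NS8 and NS9. The share of spots well above background was 81.1% to 83.9% in the MT group and 58.6% to 79.6% in the NS group, with the lowest values on slide 3. The values below are log2 intensities after quantile normalization, and they are not compared between genes, since probes differ in how brightly they report the same amount of RNA.

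In the RefSeq annotation of the rat genome (GRCr8), 5 of the 9 genes lie on chromosome 20, in the rat major histocompatibility complex, called RT1. Tap2 (chr20:4638257-4652296, minus strand), Psmb8 (chr20:4654068-4657049, minus strand), Tap1 (chr20:4658171-4668543, minus strand) and Psmb9 (chr20:4668952-4674421, plus strand) follow each other with no gene between them. Tap1 and Psmb9 are transcribed away from each other, with 408 bases between them. Tapbp (chr20:4958821-4967958, minus strand) lies 284399 bases beyond Psmb9. Psme1 (chr15:33038962-33041849, plus strand) and Psme2 (chr15:33048452-33053055, minus strand) are 6602 bases apart, with Emc9 between them. B2m lies alone (chr3:129549236-129555354, plus strand), as does Psmb10 (chr19:50740808-50743292, minus strand). The array was designed on an older build, so these are the positions of the genes and not of the probes.

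The starts of these genes are shown as a description of their sequence. The RefSeq promoter windows run from 250 bases before to 50 bases after a start annotated for the gene, and 33469 windows of that length were searched on both strands. The letters GAAANNGAAA, the core of the interferon-stimulated response element (ISRE) read by interferon regulatory factors, were found in 7 of the 9 windows and in 3.92% of all windows. The windows without a match were those of Psmb9 and Psme1. The stretches around the matches follow, 5′ to 3′ on the strand of the gene, with the matched letters in capitals (TTTC and TTTC where the element lies on the other strand); positions are counted from the start that the RefSeq window uses. That start is the outer end of the gene, as given above, for Tap1, Tap2 and Psmb10. For the other 6 genes it lies inside the gene, by 304 bases for Psme2, 94 for B2m, 81 for Tapbp, 48 for Psmb9, 18 for Psmb8 and 9 for Psme1. The matches of Psme2, Tapbp and Psmb8 lie within the genes as annotated, and those of B2m, Tap1, Tap2 and Psmb10 lie before them.
B2m, chr3:129549170-129549199, -160 to -131: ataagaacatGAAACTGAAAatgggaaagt
Tap1, chr20:4668645-4668674, -131 to -102: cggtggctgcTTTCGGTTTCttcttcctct
Tap2, chr20:4652318-4652347, -51 to -22: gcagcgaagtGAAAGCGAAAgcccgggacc
Tapbp, chr20:4967884-4967913, -36 to -7: gcctttgaggGAAAATGAAAGTGAAAggaa
Psmb8, chr20:4657016-4657045, -14 to 16: gtgctgtggcTTTCGCTTTCacttccttgt
Psmb10, chr19:50743346-50743375, -83 to -54: aagcaaaggcGAAAGTGAAAgagaagatgc
Psmb10, chr19:50743290-50743319, -27 to 3: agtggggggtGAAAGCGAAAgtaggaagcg
Psme2, chr15:33052785-33052814, -63 to -34: cctggagagtGAAAGCGAAAgctggggctg

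Tap2, Psmb10 and Psme2 held the identical match GAAAGCGAAA, and Psmb8 held its reverse complement. In Tapbp 2 matches overlapped, and Psmb10 had 2 separate ones. The NF-κB letters GGGNNNTTCC were found in 3 of the 9 windows, those of B2m, Tap1 and Tapbp, and in 5.37% of all windows. The interferon gamma activated site TTCNNNGAA was found only in the window of Psmb8 among the 9, and in 8.87% of all windows. The 160 bases before the start of Tap1 are shown as an example of a stretch with both an ISRE match and an NF-κB match, which are in capitals. The windows of B2m and Tapbp also hold both.
Tap1, chr20:4668544-4668703, minus strand: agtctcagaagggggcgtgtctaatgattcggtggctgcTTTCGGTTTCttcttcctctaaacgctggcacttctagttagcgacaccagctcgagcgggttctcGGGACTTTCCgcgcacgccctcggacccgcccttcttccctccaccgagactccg

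Psmb9 shares the stretch between the 2 genes with Tap1. The starts used for the windows are 457 bases apart, and the ISRE match of Tap1 ends 336 bases from the start of Psmb9, outside the window of Psmb9. A match is a description of the letters, and the arrays say nothing of what binds there.

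For none of the 9 genes did a difference between the MT and NS groups pass a test. The criteria of the study were read as a linear fold above 1.5 and an unadjusted p below 0.05. Its methods word the 1.5 as a log2 value, and its figure legends as a fold change. By these criteria 0 of the 9 were higher and 0 were lower in the MT group. Of the 20258 RNAs tested, 1.73% were higher and 0.997% were lower. At an adjusted p below 0.05 (limma with Benjamini-Hochberg adjustment over all RNAs) 0 of the 9 passed, against 0.197% of all RNAs. Also at an unadjusted p below 0.05 the count was 0 of 9, against 16.4% of all RNAs. The groups overlapped for each of the 9 genes, and 5.64% of all RNAs had no overlap between the groups. Of the 9 genes, 4 had a higher mean in the MT group, with a median difference of -0.10 on the log2 scale, beside -0.0013 for all RNAs tested.

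B2m encodes beta-2 microglobulin, the light chain that all classical class I molecules share. Its values were 15.34, 14.61, 15.68, 14.61 and 14.61 in MT1 to MT5, and 15.04, 15.58, 15.09, 15.02 and 14.83 in NS6 to NS10. MT1, MT3 and NS7 were high, and MT2, MT4 and MT5 were below every NS rat. The MT mean was 14.97 ± 0.51 (SD, n = 5), beside an NS mean of 15.11 ± 0.28 (SD, n = 5). The difference was -0.14 (SE 0.24, 95% interval -0.67 to 0.39, limma adjusted p = 0.788). The 10 spots of 1 probe had an SD of 0.0462 to 0.0879 within an array, while the 10 rats spanned 1.13 on that probe. Spots of an array do not cover the variation between labellings or arrays. Each B2m probe fitted alone gave a similar difference, -0.14 and -0.15.

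Tap1 and Tap2 encode the subunits that together form the peptide transporter. Tap1 was at 12.71, 11.66, 13.36, 11.53 and 11.64 in MT1 to MT5, and at 11.93, 12.23, 12.18, 11.96 and 11.57 in NS6 to NS10. Both the highest and the lowest rat were in the MT group, and all NS rats lay between them. The difference between group means was 0.20 (SE 0.35, 95% interval -0.57 to 0.98, limma adjusted p = 0.792). Tap2 was at 9.25, 8.15, 9.97, 8.15 and 8.39 in the MT rats, and at 8.43, 8.23, 8.89, 8.66 and 7.93 in the NS rats. MT1 and MT3 were above every NS rat, and the other MT rats were inside the NS range. Its difference, 0.35 (SE 0.36, 95% interval -0.45 to 1.15, limma adjusted p = 0.645), was the largest in size of the 9 genes.

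Tapbp encodes tapasin. Its values were 8.42, 7.42, 9.04, 7.54 and 7.62 in the MT rats, and 7.64, 8.36, 8.57, 8.51 and 7.50 in the NS rats. In each group some rats were near 7.5 and others above 8.3. The difference of -0.11 (SE 0.35, 95% interval -0.88 to 0.67, limma adjusted p = 0.898) was smaller than the SD of either group.

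Psmb8, Psmb9 and Psmb10 encode the catalytic subunits of the immunoproteasome. Psmb8 was at 12.52, 11.52, 13.18, 11.44 and 11.51 in the MT rats, and at 11.91, 12.71, 12.28, 12.15 and 11.63 in the NS rats. Again MT1, MT3 and NS7 were high, and MT2, MT4 and MT5 were below every NS rat. The difference was -0.10 (SE 0.36, 95% interval -0.90 to 0.69, limma adjusted p = 0.903). Psmb9 was at 10.95, 9.39, 11.9966, 9.12 and 9.68 in the MT rats, and at 10.37, 10.47, 10.57, 10.21 and 9.22 in the NS rats. It had the widest spread of the 9 genes, since MT3 was 7.34-fold above MT4 on the linear scale. The group means differed by only 0.06 (SE 0.54, 95% interval -1.13 to 1.25, limma adjusted p = 0.965), and this interval holds changes of more than 1.5-fold in both directions. Psmb10 was at 13.27, 12.77, 13.74, 12.67 and 12.69 in the MT rats, and at 13.25, 13.43, 13.15, 13.04 and 12.88 in the NS rats. Its difference was -0.12 (SE 0.21, 95% interval -0.59 to 0.35, limma adjusted p = 0.795).

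Psme1 and Psme2 encode the subunits of the proteasome activator that interferon gamma induces. Psme1 was at 13.52, 12.95, 13.91, 12.76 and 12.95 in the MT rats, and at 13.39, 13.67, 13.59, 13.41 and 13.01 in the NS rats. MT2, MT4 and MT5 were below every NS rat, and MT3 was above all. The difference was -0.20 (SE 0.22, 95% interval -0.69 to 0.30, limma adjusted p = 0.686). Psme2 was at 7.33, 7.22, 7.40, 7.27 and 7.32 in the MT rats, and at 7.28, 7.18, 7.42, 7.26 and 7.17 in the NS rats. All 10 rats lay within 0.26 on the log2 scale. The difference was 0.05 (SE 0.07, 95% interval -0.11 to 0.20, limma adjusted p = 0.772), an interval that holds no 1.5-fold change.

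**Figure D1:**
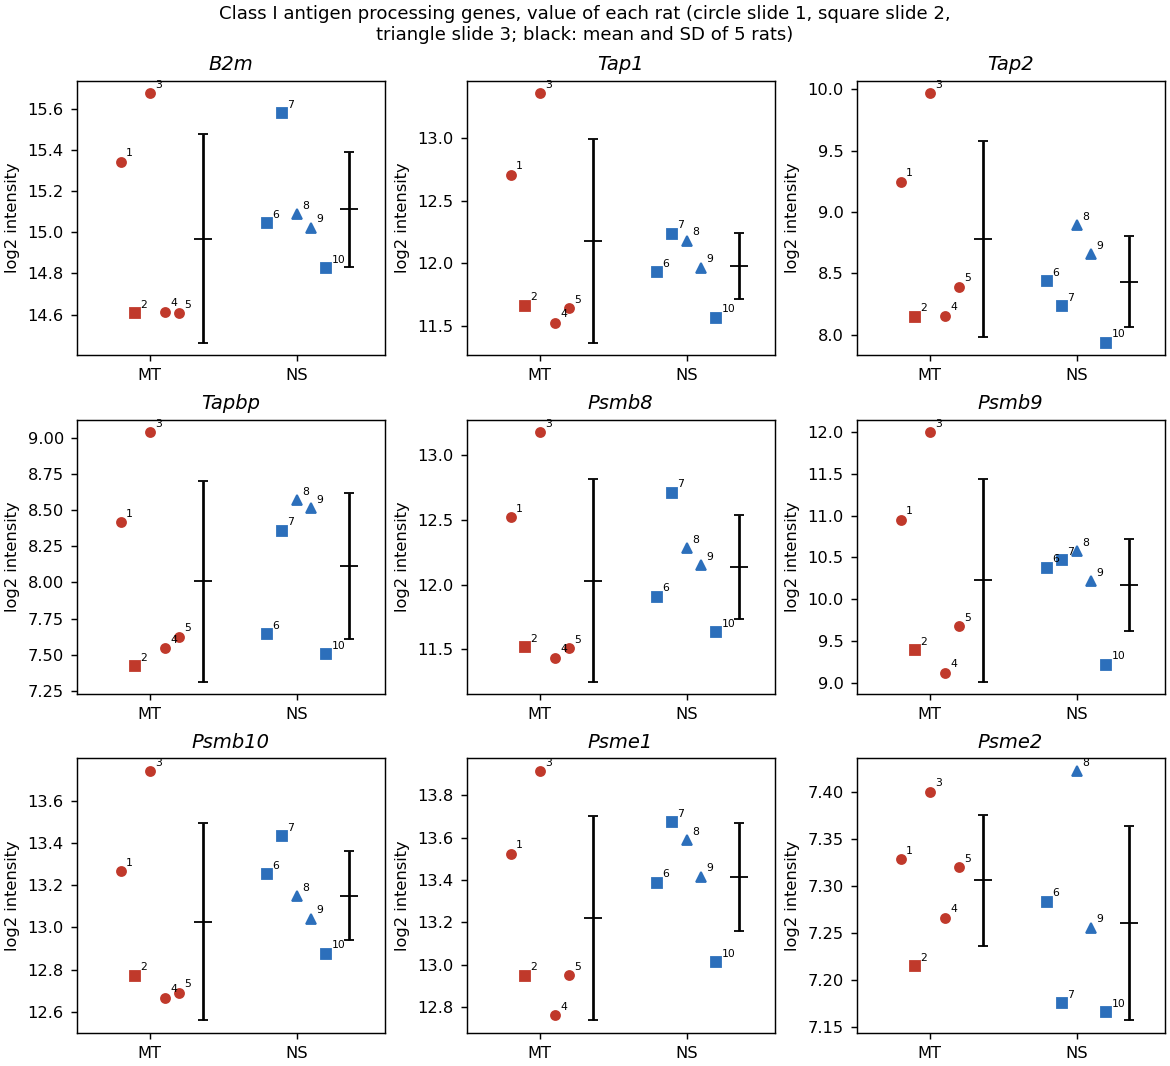
Normalized log2 intensity of each class I antigen processing gene in the 5 MT rats (red) and the 5 NS rats (blue), 1 point per rat labelled with the rat's number, with the slide as the symbol and the mean and SD of each group in black. The groups overlap in every panel, and in 8 of the 9 panels MT3 is the highest rat.

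Exact two-sided permutation tests over all 252 assignments of the rats gave p = 0.429 for Tap2, Psme1 and Psme2 and higher values for the other genes, up to p = 0.952 for Psmb9. The only slide with both groups was slide 2. There MT2 was below the mean of NS6, NS7 and NS10 for 8 of the 9 genes, by -0.05 for Tap2 up to -0.63 for Psmb9, and by 0.01 above it for Psme2. One MT rat gives no measure of spread, and MT2 was among the low rats of its group for these genes.

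**Figure D2:**
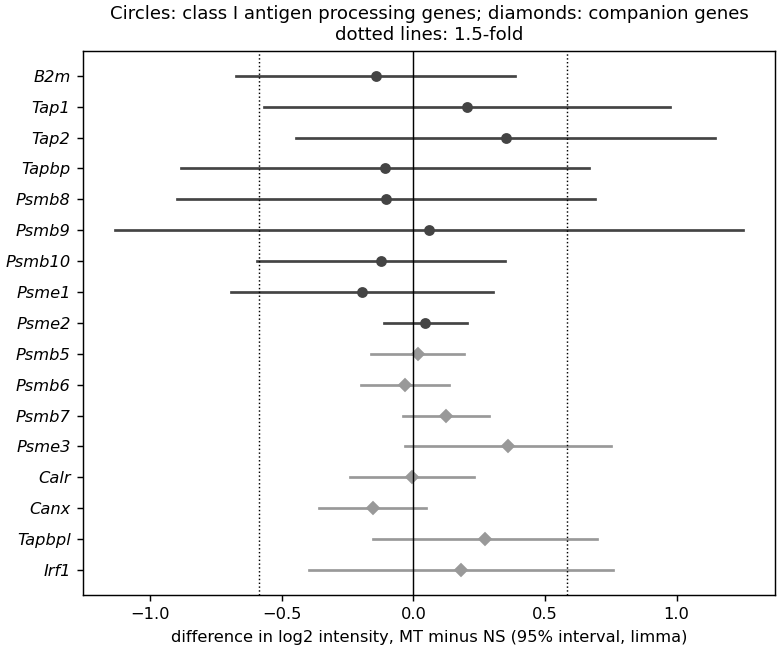
MT minus NS difference in log2 intensity with its 95% interval from limma, for the 9 class I antigen processing genes (circles) and companion genes named beside them (diamonds), with dotted lines at a 1.5-fold change. Each interval crosses 0, and the interval of Psmb9 is the widest.

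The spread between rats of one group was larger for these genes than for most mRNAs. The median within-group SD of the 9 genes was 0.605, beside 0.19 over 12461 named mRNAs. An SD as large as that of Psmb9 was reached by 2.54% of the mRNAs, as large as those of Tap1, Tap2, Tapbp and Psmb8 by 7.98% to 8.46%, and as large as those of B2m, Psmb10 and Psme1 by 17.7% to 21.6%. Psme2 was the exception, since 90.3% of the mRNAs had an SD at least as large. Its probe was the dimmest of the 9 genes on each array, at 72.9 to 215.6 before normalization. The part of this dimness in its small spread was not tested. The SD was larger in the MT than in the NS group for 8 of the 9 genes (all but Psme2), and for 39.69% of the named mRNAs. MT3 and MT1 were high and the other MT rats low, and the comparison of SDs was not tested.

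The linear span between the highest and the lowest rat was 2.10-fold for B2m and Psmb10, 2.22-fold for Psme1, 3.07-fold for Tapbp, 3.34-fold for Psmb8, 3.56-fold for Tap1, 4.09-fold for Tap2 and 1.19-fold for Psme2. Except for Psme2, which spanned 0.13 there, most of the span was present within slide 1 alone, whose arrays share a scan time. On that slide Psmb9 spanned 2.88, Tap1 1.83, Psmb8 1.74 and B2m 1.07 on the log2 scale, as much as over all 10 rats to these digits.

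The rats kept a similar order from gene to gene. All 36 pairs of the 9 genes had a positive Pearson r over the 10 rats, with a median of 0.88 and a range of 0.27 to 0.98, and a median of 0.91 after the group means were taken out. These are descriptions over 10 arrays that were normalized together and lie on 3 slides, with no p. Without MT3 and MT4, the 2 rats farthest from the median of the shared profile, the median over 8 rats was 0.80 and the lowest r was -0.004. The low values came from Psme2. The 28 pairs without Psme2 had r of at least 0.69 over 10 rats and at least 0.41 over 8 rats. Psmb9 followed the mean of the other 8 genes most closely (r = 0.99, Spearman's rho 0.98, r = 0.97 without MT3 and MT4). Psme2 followed it least (r = 0.53, Spearman's rho 0.50, r = 0.35 without MT3 and MT4). The windows of Psmb9 and of Psme1 (r = 0.94) held no ISRE match, and that of Psme2 held one. A link of the matches with the order of the rats was not tested. The neighbours Tap1 and Psmb9 had r = 0.97 with each other. B2m and Psmb8, which lie on different chromosomes, had r = 0.98. Of the genes outside chromosome 20, B2m, Psmb10 and Psme1 had r of 0.89 to 0.94 with the mean of the others, and Psme2 only 0.53.

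A profile was made as the mean of the standardized values of the 9 genes in each rat. It was 1.82 in MT3, 0.74 in MT1, 0.54 in NS8, 0.40 in NS7, 0.06 in NS9, -0.08 in NS6, -0.69 in MT5, -0.90 in NS10, -0.91 in MT2 and -0.98 in MT4. MT rats stood at both ends and most NS rats between them. The profile computed after 75th percentile scaling, after normexp correction or from the deposited normalized table had r of 0.987 or more with it, and MT3 was the highest rat in each. The share of spots well above background was highest in MT3 (83.9%), and was 63.8% in NS8 and 58.6% in NS9. The part of this share in the profile was not tested.

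The standard catalytic subunits spanned less than the immunoproteasome subunits that replace them. Psmb5, Psmb6 and Psmb7 encode the subunits that Psmb8, Psmb9 and Psmb10 replace. Over the 10 rats Psmb5 spanned 0.33 where Psmb8 spanned 1.74, Psmb6 spanned 0.31 where Psmb9 spanned 2.88, and Psmb7 spanned 0.36 where Psmb10 spanned 1.07, all on the log2 scale. Their MT minus NS differences were 0.02 for Psmb5, -0.03 for Psmb6 and 0.12 for Psmb7, with limma adjusted p of 0.934, 0.848 and 0.428. Of the 14 constitutive subunits of the proteasome core, 0 met the criteria. Their median span was 0.34, and Psmb3 alone spanned more than 0.67, with 2.30. The list mean of the 14 subunits stayed between -0.06 and 0.09 as centred log2 intensity, and had r = 0.80 with the class I profile (Spearman's rho 0.64, r = 0.63 without MT3 and MT4). Of the 14, 3 had r above 0.8, among them Psmb2 (r = 0.97, Spearman's rho 0.99), which spanned 0.67. Psmb3 did not follow the class I profile (r = -0.37, Spearman's rho -0.51), and was lowest in NS9 at 13.47.

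**Figure D3:**
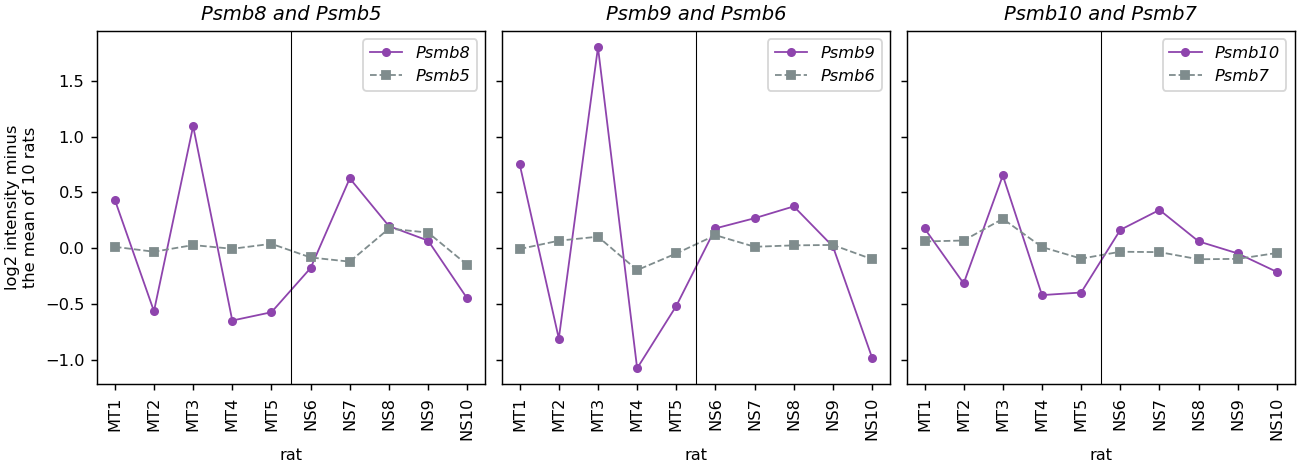
Log2 intensity minus the mean of the 10 rats for each immunoproteasome subunit (circles, solid line) and the standard subunit it replaces (squares, dashed line), with the rats along the axis and MT rats on the left of the vertical line. The immunoproteasome subunits peak in MT3 and are low in MT2, MT4, MT5 and NS10, while the standard subunits span at most 0.36.

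None of the peptide loading genes or the other proteasome activators met the criteria. Psme3, which encodes the related nuclear activator, differed by 0.36 (SE 0.18, limma adjusted p = 0.339). Its values were 11.94 to 12.20 in the MT rats and 11.89, 11.96, 11.17, 11.29 and 12.04 in NS6 to NS10, so that only the rats of slide 3 were low. The chaperones Calr and Canx differed by -0.0042 and -0.16, and Tapbpl, which encodes a second peptide editor, by 0.27 (limma adjusted p of 0.988, 0.426 and 0.499). All 17 peptide loading and chaperone genes tested were short of the criteria, and their mean over the list hardly followed the class I profile (r = 0.21). The 25 tested genes of the regulatory particle, other activators and assembly factors also gave 0 past the criteria. Their list mean had r = 0.83 with the class I profile (Spearman's rho 0.85, r = 0.73 without MT3 and MT4), within -0.08 to 0.08 as centred log2 intensity. Pdia3, Erap1 and Nlrc5 were not analysed here.

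The RT1 heavy chains, which pair with beta-2 microglobulin, were the one list of the path with genes past the criteria. Of 24 tested, 16 had a higher mean in the MT group, beside 49.77% of all RNAs tested, and 0 passed at an adjusted p below 0.05. By the criteria 0 were lower, against 0.997% of all RNAs tested, and 4 were higher, against 1.73%. These were RT1-CE4 by 0.91 (SE 0.35, limma adjusted p = 0.251), RT1-M6-2 by 1.59 (SE 0.68, limma adjusted p = 0.288), RT1-M1-2 by 0.83 (SE 0.25, limma adjusted p = 0.169) and RT1-T18 by 0.67 (SE 0.26, limma adjusted p = 0.258). RT1-CE4 was at 11.48, 10.85, 11.87, 11.03 and 10.51 in the MT rats and at 10.08, 9.52, 9.80, 10.58 and 11.22 in the NS rats, and the groups overlapped, since NS9 and NS10 were above MT5. RT1-M6-2, RT1-M1-2 and RT1-T18 were dim. Each rose over background on all 5 MT arrays, but on only 2, 2 and 3 of the 5 NS arrays. They passed the filter only with the MT arrays counted, so that their direction is tied to the filter. With the slide as a fixed block none of the 4 met the criteria. Of the whole list, 1 gene did with normexp correction, and 2 did without slide 3. With a filter on all 10 arrays 2 did, and the dim genes could not be among them. Leaving out 1 rat at a time gave 2 to 5. RT1 genes are near-identical copies, so a probe may read more than the gene it is named for, and rats differ in the RT1 copies they carry.

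Those heavy chains that varied did so in part with the 9 genes. Over the 10 rats the mean of the 24 RT1 genes had r = 0.89 with the class I profile (Spearman's rho 0.79, r = 0.82 without MT3 and MT4), and 11 of the 24 had r above 0.8. For RT1-S3, r was 0.96. The share of all named mRNAs with r above 0.8 was 4.95%, with a median r of -0.03. Other partners of beta-2 microglobulin, Fcgrt, Hfe and Cd1d1, did not follow the profile as a list (r = -0.54, Spearman's rho -0.25, r = -0.24 without MT3 and MT4). Fcgrt ran opposite to it (r = -0.87, Spearman's rho -0.88, r = -0.96 without MT3 and MT4), within 10.64 to 10.94. For Hfe r was -0.18, and for Cd1d1 -0.33.

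Interferon signalling was measured through receptors, factors and inducible genes. Irf1, a factor that carries the interferon gamma signal to class I promoters, differed by 0.18 between the groups (SE 0.26, limma adjusted p = 0.754). Of 8 receptor and signalling genes tested, 1 met the criteria as higher, against 1.73% of all RNAs tested, and 0 as lower, against 0.997%. The higher gene was Socs3, which encodes a feedback inhibitor of cytokine receptors. It was at 6.62, 6.81, 6.29, 6.85 and 6.50 in the MT rats and at 5.99, 5.81, 5.74, 5.81 and 6.04 in the NS rats, with no overlap. The difference was 0.74 (SE 0.12, limma adjusted p = 0.0466). The adjusted call was lost under 75th percentile scaling, normexp correction, the deposited table, no filter, the methods' t-test and both slide blocks, without slide 3, and in 8 of the 10 settings that left out 1 rat; it was not lost in those without MT3 or NS10. Ifngr1, which encodes a subunit of the interferon gamma receptor, differed by -0.53 (SE 0.17, limma adjusted p = 0.187) and did not meet the criteria. Ifng, Ifngr2 and Ifnb1 did not pass the filter on dim probes.

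Of 21 interferon inducible genes outside class I, 14 had a higher mean in the MT group, beside 49.77% of all RNAs tested, and 0 met the criteria. Among the 14, Cxcl9 was above background on 5 MT and 0 NS arrays. It passed the filter only through the MT arrays, so that its direction is tied to the filter. The list varied with the 9 genes instead. The mean of the list had r = 0.95 with the class I profile (Spearman's rho 0.88, r = 0.95 without MT3 and MT4), and 18 of the 21 had r above 0.8. The list mean was 1.55 in MT3, 0.82 in MT1 and 0.71 in NS7, and -0.99 in MT5 and -1.06 in NS10, as centred log2 intensity. Gbp2 and Igtp, which encode interferon-induced GTPases, had r of 0.97 each, and Irf1 had r of 0.92. Ifit1 was an exception (r = -0.17).

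**Figure D4:**
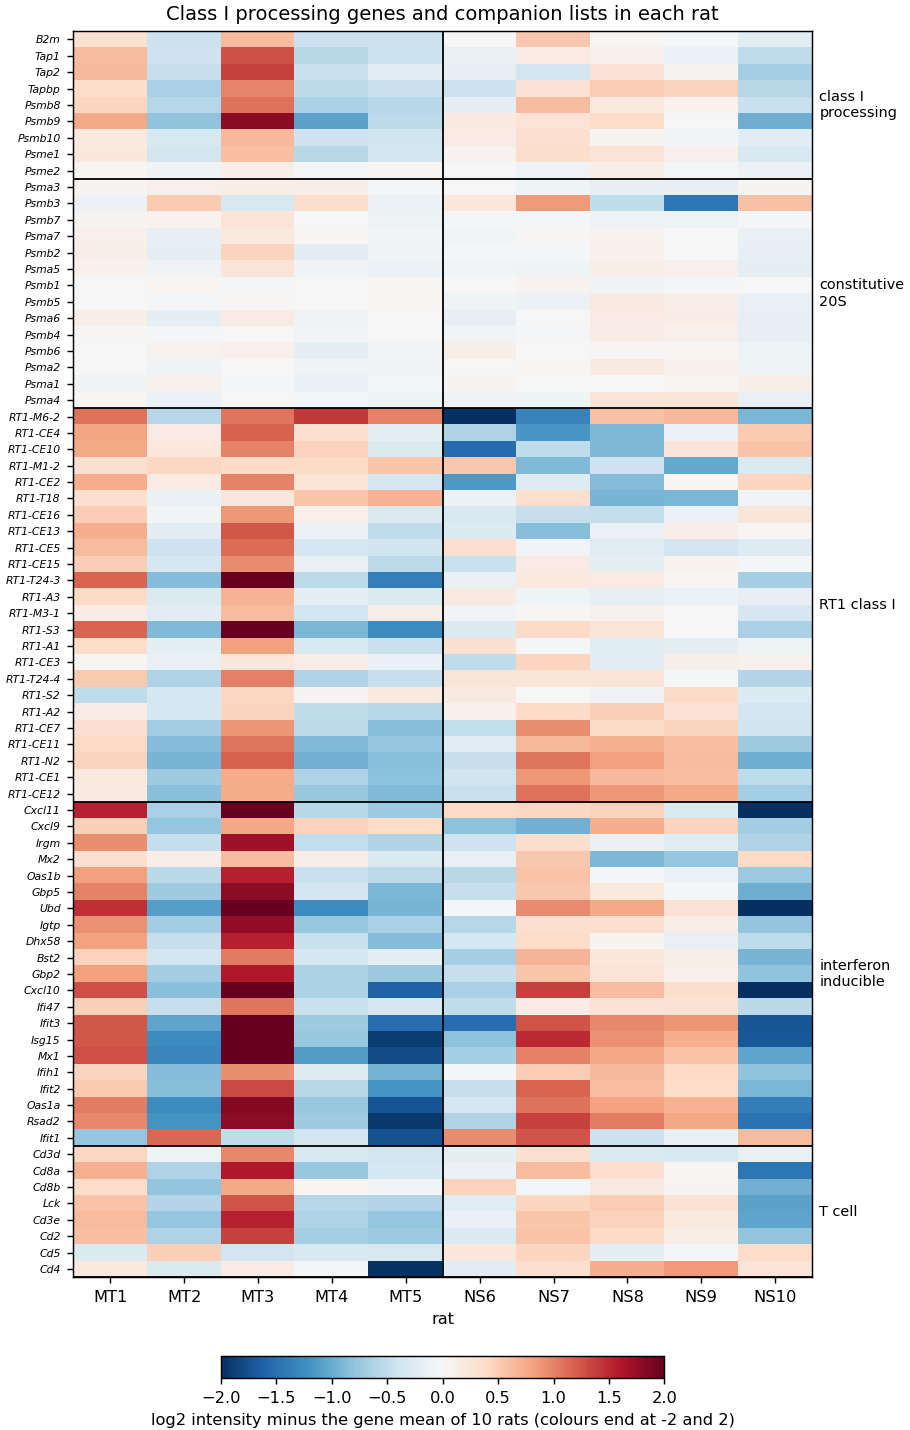
Log2 intensity of each gene minus its mean over the 10 rats (red above, blue below, colours ending at -2 and 2), with 1 column per rat and the lists of class I processing, constitutive proteasome core, RT1 class I, interferon inducible and T cell genes as blocks of rows. MT3 and MT1 are red and MT2, MT4, MT5 and NS10 blue in most class I processing, interferon inducible and T cell rows, while the rows of the constitutive core are pale except Psmb3.

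Genes of the cells that read class I molecules had a similar order of rats. The 12 tested genes of CD8 T cell and natural killer recognition gave 0 past the criteria, and their mean had r = 0.95 with the class I profile (Spearman's rho 0.95, r = 0.92 without MT3 and MT4). For the 8 T cell markers tested, which share 4 genes with that list, r was 0.96 (Spearman's rho 0.87, r = 0.96 without MT3 and MT4). Cd3e, part of the T cell receptor complex, was at 8.89, 7.48, 9.80, 7.65 and 7.48 in the MT rats and at 8.14, 8.82, 8.72, 8.45 and 7.20 in the NS rats. Its r with the profile was 0.98 (Spearman's rho 0.89), and it was well above background on 10 of 10 arrays. Of the T cell markers, 4 had r above 0.8, and Cd4 (r = 0.38) and Cd5 (r = -0.39) were among those that did not. The list mean of the T cell markers ranged from -0.65 to 0.91 in the MT group and from -0.61 to 0.40 in the NS group, as centred log2 intensity. The part of T cells in the spread of the class I genes was not tested.

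All 8 microglia markers had a lower mean in the MT group, 5 of them with no overlap (5.64% of all RNAs). Of these, P2ry12 was apart only narrowly, with the highest MT rat at 11.2473 and the lowest NS rat at 11.2476. By the criteria 2 of the 8 were lower, against 0.997% of all RNAs tested, and 0 were higher, against 1.73%. Tmem119 differed by -1.24 (SE 0.21, limma adjusted p = 0.0555) and Gpr34 by -0.63 (SE 0.09, limma adjusted p = 0.0414). With the slide as a block no RNA passed the adjusted threshold. The list mean of the microglia markers was -0.49 to -0.0016 in the MT and -0.07 to 0.42 in the NS rats. Its r with the class I profile was 0.45 (Spearman's rho 0.56, r = 0.52 without MT3 and MT4). All 4 neutrophil markers tested had a higher mean in the MT group, 3 of them with no overlap, and 1 of the 4, Cxcr2, was clear of background on 5 MT but only 2 NS arrays. Their r with the class I profile was -0.09 (Spearman's rho -0.16, r = -0.13 without MT3 and MT4). Neuron, oligodendrocyte and astrocyte markers were measured, as the tissue label of spinal cord would have it, and their list means stayed within 0.17 of the mean of the 10 rats. The astrocyte list mean was -0.1253 to -0.0233 in the MT and -0.0209 to 0.1118 in the NS rats, so that the groups were narrowly apart. Of the 5 astrocyte markers tested, 1 had a higher mean in the MT group and 0 met the criteria. The part of the cells of all these marker lists in the class I values was not tested.

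**Figure D5:**
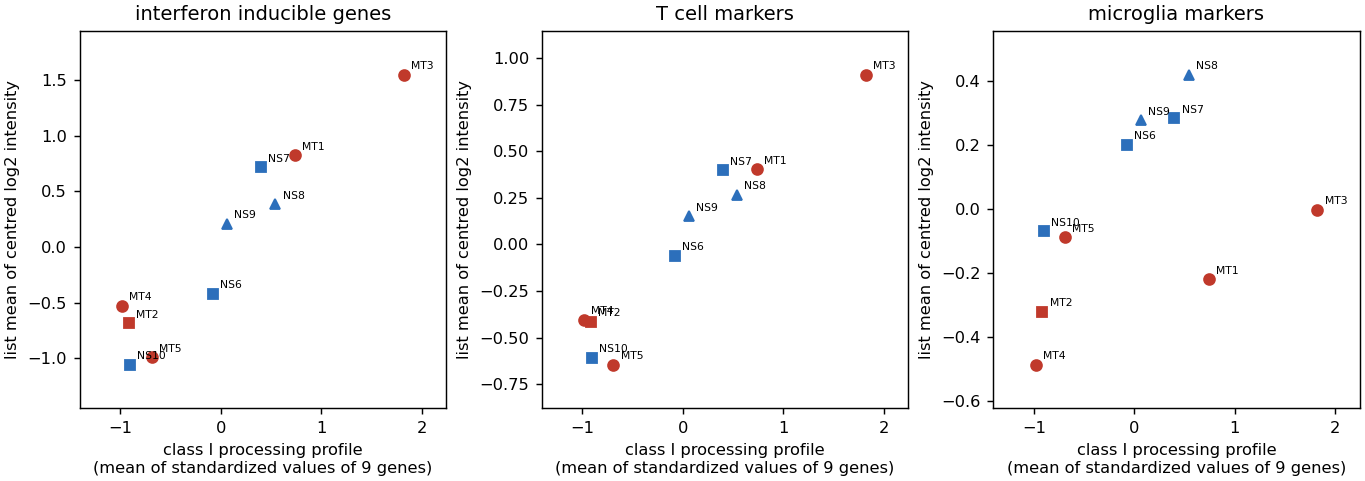
Class I processing profile of each rat (mean of the standardized values of the 9 genes) against the mean centred log2 intensity of the interferon inducible genes, the T cell markers and the microglia markers, with MT rats in red, NS rats in blue and the slide as the symbol. The first and second panels follow a line from NS10, MT2, MT4 and MT5 up to MT3, while in the third most MT rats lie below the NS rats at the same profile.

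The genes of class II presentation, which shows peptides from outside the cell, had r = 0.83 with the profile (Spearman's rho 0.67, r = 0.80 without MT3 and MT4). For the 9 tested neighbours of the Tap and immunoproteasome genes in the class II region of RT1, r was 0.70 (Spearman's rho 0.52, r = 0.60 without MT3 and MT4). All of these but Brd2 are also in the class II list, so the 2 values of r are not separate results. Both lists hold RT1-Bb, which had the widest span in them and r = -0.03 with the profile. Of the 13 class II presentation genes tested, 1 met the criteria as higher, against 1.73% of all RNAs tested, and 0 as lower, against 0.997%. The higher gene was RT1-Bb, at 9.86 to 12.34 in the MT rats and at 1.24, 9.98, 1.80, 9.11 and 9.98 in the NS rats (limma adjusted p = 0.228). Its signal passed the background on 5 of 5 MT and 3 of 5 NS arrays, and the size of its difference rests on NS6 and NS8.

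The mRNAs outside the 9 that were most like the profile were, by Pearson r over the 10 rats, Hnrnpd, Rps27, Rab13, Syncrip and Cirbp, with r of 0.98 to 0.99, and of 0.97 to 0.99 without MT3 and MT4. Hnrnpd, Syncrip and Cirbp encode RNA-binding proteins, Rps27 a ribosomal protein and Rab13 a small GTPase. Hnrnpd spanned 0.53 over the rats and Rps27 0.43 on the log2 scale, while Rab13 spanned 1.22 and Cirbp 1.20. They had nearly equal means in both groups, such as 9.29 in the MT and 9.26 in the NS group for Rab13.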

How the data were processed

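Total RNA of 10 rats was hybridised by the authors to one-colour Agilent arrays and read with Agilent Feature Extraction 11.0.1.1. The deposited scanner files hold the processed signal, an intensity already background-corrected by that software; the deposited normalized table, on a log2 scale, was made by the authors by quantile normalization and served as an alternative. Here the intensity was set to at least 1, taken to log2 and quantile normalized over 42136 spots with limma 3.58.1 in R 4.3.3. Outlier spots were dropped, spots averaged per probe and probes per accession. The filter kept RNAs flagged as clearly above background in over 50% of spots on 5 or more arrays, which left 20258 RNAs. lmFit and eBayes compared 5 MT with 5 NS arrays without covariates, as in the methods, and p-values were adjusted over all RNAs. The number of arrays limits the precision.

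The 9 genes, the companion lists and the tests were chosen with earlier results of these data known. All 9 genes are named. Of each companion list up to 4 genes past the criteria by fold were named, together with Psmb5, Psmb6, Psmb7, Psme3, Calr, Canx, Pdia3, Tapbpl, Erap1, Nlrc5 and Irf1, and the 5 mRNAs most like the profile. Other genes, such as Psmb2, Psmb3, Cxcr2, RT1-S3, Gbp2, Igtp, Ifit1, Cxcl9, Ifngr1, Tmem119, Gpr34, Cd3e, Cd4 and Cd5, were chosen after their values were seen. Genes were matched by accession without version to the RefSeq gene table of GRCr8. The procedure was tested on simulated data. The alternatives were 75th percentile scaling, normexp correction, the deposited table, other filters, a variance trend, array weights, the methods' t-test, the slide as a block and each rat left out. Normexp was run on the median signal, an alternative chosen after seeing the data, because the scanner files hold no mean signal. A gene of the rule for named genes is not reported here.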

Additional observations from a re-analysis of the deposited data

Results flagged for a closer look

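Of 18 groups of 5 values, 2 for each of the 9 genes, 1 held a rat far from the others. This was Psmb9 in NS10, at 9.22 on the log2 scale, where the nearest NS rat was at 10.21. The gap was 0.735 of the range of the group, above Dixon's 95% critical value for 5 samples. Chance flags about 1 in 20 separate groups. The 18 groups are the same rats read through 9 genes that moved together, so they are not separate and the count cannot be weighed against that rate. NS10 was also the lowest NS rat for the other 8 genes.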

How the results depend on the processing

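No paired analysis was possible because the MT rats are numbered 1 to 5 and the NS rats 6 to 10, so that the groups share no number. In each setting run, 0 of the 9 genes met the criteria, passed at an adjusted p below 0.05 or had no overlap between groups, including the settings that left out 1 rat; adjusted p ranged from 0.375 to 1.00. Of 208 differences recomputed, 189 kept their sign and 19 turned. With array weights Tapbp was 0.028 and Psmb9 -0.028, and without slide 3 Tapbp was 0.17. With the slide as a fixed block, which takes the difference from slide 2 alone, Tap1 was -0.25, Tap2 -0.054 and Psmb9 -0.63, and as a random block Tap1 was -0.026 and Psmb9 -0.30. Without 1 rat the differences ranged from -0.32 to -0.03 for B2m, -0.091 to 0.37 for Tap1, 0.05 to 0.51 for Tap2, -0.37 to 0.040 for Tapbp, -0.39 to 0.045 for Psmb8, -0.38 to 0.34 for Psmb9, -0.30 to -0.03 for Psmb10, -0.37 to -0.08 for Psme1 and 0.02 to 0.09 for Psme2. Of all RNAs, 553 met the criteria, and 200 did with normexp correction, 910 with no filter, 347 with a filter on all arrays, 321 and 327 with the slide as a fixed and a random block, 21 with 1.5 read as a log2 value, and 425 to 865 without 1 rat. Of all RNAs, 40 passed the adjusted threshold, and 143 did with normexp correction, 12 with no filter, 120 with a filter on all arrays, 117 with a variance trend, 134 with array weights, 2 without slide 3, 0 with the slide as a fixed or a random block, and 0 to 84 without 1 rat. The causes were not tested. With 1 MT rat on slide 2, slide and group can hardly be told apart.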
